A study of Mus musculus with 8 samples.

Results

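The trypsinogen genes of the mouse pancreas were described across 4 groups of mice. The set was taken by name: *Prss1*, *Prss2*, *Prss3*, *Try4*, *Try5*, and *Try10*, which are 6 of the 48709 gene rows of each library. They were read beside *Spink1*, the gene of the trypsin inhibitor that acinar cells secrete with trypsinogen. Expression was measured by RNA-Seq of whole pancreas from male mice of 8 weeks, with 2 libraries, labeled as biological replicates, in each group. The 4 groups were WT mice given normal saline (WT saline), WT mice with acute alcoholic pancreatitis (WT FAEE-SAP), mice with a pancreas-specific knockout of *Pfkfb3* given saline (cKO saline), and cKO mice with the same pancreatitis (cKO FAEE-SAP). FAEE-SAP was induced with ethanol and palmitoleic acid, and the tissue was taken at 24 hours. In the cKO, floxed *Pfkfb3* was cut by Cre from the *Pdx1* promoter, which is active in the progenitors of the pancreas, so acinar, ductal, and islet cells all descend from cells that could carry the deletion, whereas immune and stromal cells do not.

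Trypsinogen is the inactive precursor of trypsin, made by acinar cells and stored in zymogen granules. In the gut, enteropeptidase cuts it after a lysine that follows a run of aspartates, and the trypsin formed then activates the other pancreatic zymogens. Activation inside the acinar cell is an early event of acute pancreatitis, where cathepsin B can activate trypsinogen, cathepsin L and chymotrypsin C can degrade it, and the inhibitor encoded by *Spink1* blocks trypsin that forms too early.

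The 6 genes lie together on chromosome 6 (GRCm38, GENCODE vM21), inside the T cell receptor beta locus between *Trbv30* and *Trbd1*. *Try4* spans chr6:41302269-41305532 on the plus strand, *Try5* chr6:41311233-41316841 on the minus strand, *Try10* chr6:41354105-41357914 on the plus strand, *Prss3* chr6:41373814-41377678 on the minus strand, *Prss1* chr6:41458932-41463786 on the plus strand, and *Prss2* chr6:41521787-41525079 on the plus strand. The similar loci *Gm5771*, *Gm10334*, and *Gm5409* stand among them, and *1810009J06Rik*, *Gm2663*, and *2210010C04Rik* stand at the other end of the receptor locus, between *Trbv1* and *Trbv2*. *2210010C04Rik* is a cationic trypsinogen of the mouse. These 6 loci had rows and were read beside the named genes, whereas *Prss3b* and *Try3* matched no row.

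The feature that makes these genes trypsinogens is the activation site, which is in exon 2 of each transcript. It is shown here because the number of aspartates before the cut differs among the named genes and their neighbors. The lines give the coding strand from the reference, 5′ to 3′, with the aspartate codons and the lysine codon after which the enzyme cuts in capitals.
Try4, chr6:41303289-41303327, plus strand: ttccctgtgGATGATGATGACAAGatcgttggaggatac
Try5, chr6:41313465-41313503, minus strand: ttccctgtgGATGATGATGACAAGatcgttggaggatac
Prss2, chr6:41522822-41522860, plus strand: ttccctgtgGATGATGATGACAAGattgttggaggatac
Prss3, chr6:41376924-41376962, minus strand: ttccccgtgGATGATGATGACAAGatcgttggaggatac
2210010C04Rik, chr6:41034360-41034398, minus strand: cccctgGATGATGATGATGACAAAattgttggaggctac
Gm5771, chr6:41394664-41394702, plus strand: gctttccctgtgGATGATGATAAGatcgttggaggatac
Gm2663, chr6:40998052-40998090, minus strand: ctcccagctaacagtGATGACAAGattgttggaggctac
All 6 named genes had 4 aspartate codons, as had *Gm10334*, whose 39 bases were those of *Prss3*, *2210010C04Rik* had 5, *Gm5771* had 3, and *Gm2663* and *1810009J06Rik* had 2. The lysine was codon 23 of the reading frame in the named genes.

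The members resemble each other so closely that reads can be hard to assign. The transcripts of *Try4* and *Try5* were 97.1% identical, those of *Prss1* and *Gm5771* 97.8%, those of *Prss3* and *Gm10334* 98.9%, and those of *Prss1* and *Prss3* 96.1%. *Prss2* stood apart, with 88.5% to 90.7% identity to the other members. All windows of 100 bases in each transcript were searched for in the transcripts of all other genes. The share found exactly was 45.0% for *Prss3*, 30.2% for *Try4*, 25.6% for *Try5*, and 21.8% for *Prss1*. It was 11.6% for *Try10* and 0 for *Prss2* and *2210010C04Rik*. How the authors placed reads that match several genes is not given in the sources used here, so the split among close copies is uncertain. Among the named genes it is least so for *Prss2*, of whose windows of 50 bases 7.83% were found in the transcript of another gene.

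The values were RPKM, reads per kilobase of exon set against the depth of the library, which allow levels to be compared between genes. A few enzymes filled most of each library, and their part of it changed. Rows of a list of 37 digestive enzymes held 85.4% to 87.9% of all RPKM in each saline library. That share was 80.1% and 80.0% in cKO FAEE-SAP and 64.2% and 66.9% in WT FAEE-SAP. RPKM is a share of the library, so levels were read as deposited and after scaling by the median of ratios, which sets the typical gene to the same level in each library. The scaling factors were 0.728 and 0.866 for WT saline, 2.02 and 1.94 for WT FAEE-SAP, 0.621 and 0.665 for cKO saline, and 1.05 and 0.975 for cKO FAEE-SAP. The depth recovered from the low values was 22.8 to 37.6 M reads for each library. It put about 69.7 to 521 reads on *Prss1*, 4356 to 19010 on *Prss3*, 4846 to 10092 on *Try10*, and at least 393485 on each of *Prss2*, *Try4*, and *Try5*. As deposited, *Pfkfb3* itself read 1.24 and 1.46 RPKM in WT saline, 3.75 and 6.22 in WT FAEE-SAP, 0.546 and 1.39 in cKO saline, and 1.82 and 2.75 in cKO FAEE-SAP. After scaling, the *Pfkfb3* levels of the genotypes overlapped within both treatments, and a value over the whole gene need not show the loss of an exon, so the cKO label was not checked by it. All 12 acinar markers were detected in every library.

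*Try4*, *Prss2*, and *Try5* carried nearly all trypsinogen RNA, between 99.0% and 99.5% of the summed RPKM of the 6 genes in each library. *Try4*, an anionic type of trypsinogen, was the third most abundant of all gene rows in all 8 libraries. *Prss2*, anionic trypsinogen, ranked 4 or 5, and *Try5* ranked between 5 and 12. *Prss3* ranked between 39 and 113, *Try10* between 47 and 98, and *Prss1* between 362 and 4789. *Spink1* ranked between 29 and 47. In WT saline, *Prss3* (294 and 225 scaled RPKM) and *Try10* (393 and 376 scaled RPKM) were far under the 3 leading genes, and *Prss1* was at 8.60 and 5.20 scaled RPKM. The 6 genes together took 15.0% to 19.4% of the summed RPKM of a library.

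**Figure D1:**
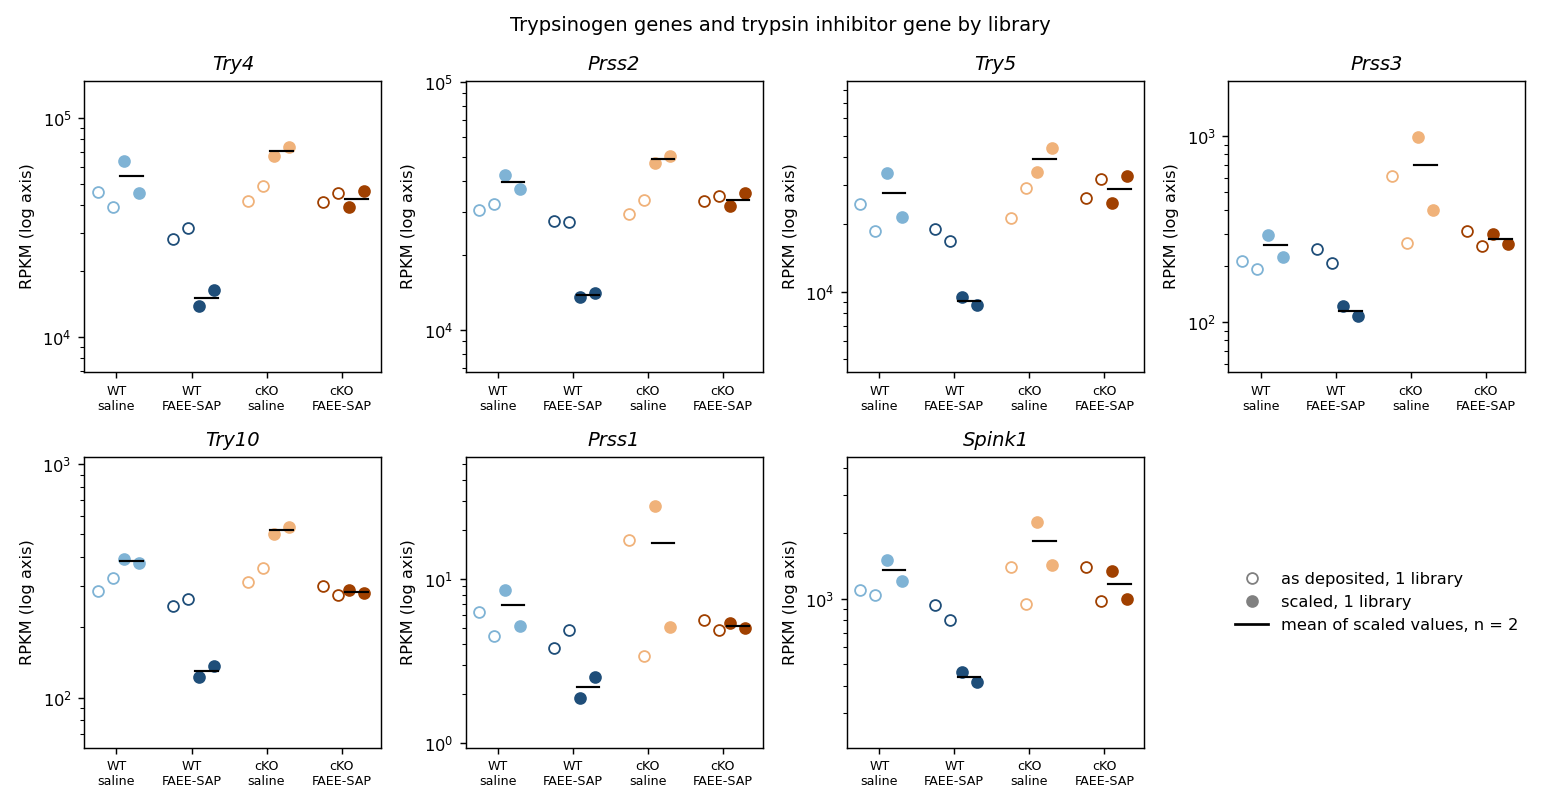
RPKM of the 6 trypsinogen genes and *Spink1* in each of the 8 libraries by group, on a log axis, as deposited (open points) and scaled by the median of ratios (filled points, with lines for their mean, n = 2). Scaled *Try4* sat at 13844 and 16329 in WT FAEE-SAP and between 39391 and 73881 in the other 6 libraries, whereas as deposited the groups lay much closer together.

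In WT mice, FAEE-SAP against saline asked what pancreatitis did to trypsinogen RNA. On the scaled values all 6 genes fell, by 2.24-fold for *Prss3* to 3.59-fold for *Try4*, whereas *Prss3* turned to a log2 difference of 0.16 as deposited and *Try5* to 0.41 under quantile normalization. *Spink1* fell by 3.09-fold on the scaled values. In whole tissue, fewer acinar cells and less RNA per acinar cell cannot be told apart. A gene was called when its Benjamini-Hochberg adjusted p from limma, over all genes tested, was under 0.05 and its change at least 2-fold, and all 6 genes were called lower where 3.86% of the genes tested were called lower and 3.08% higher. As deposited, none was called, where 0.789% of the genes tested were called lower and 65.9% higher, and the median of all genes was itself shifted by 1.24 on the log2 scale.

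Scaled *Try4* was 63430 and 45436 RPKM in WT saline and 13844 and 16329 in WT FAEE-SAP. Both treated libraries were far below both saline libraries, with a log2 fold change of -1.84 (SE 0.20, limma adjusted p = 0.00947). As deposited, *Try4* read 46173 and 39347 with saline and 28023 and 31601 with FAEE-SAP, which also did not overlap, and the log2 difference was -0.52. Scaled *Prss2* was 41985 and 37065 with saline and 13543 and 14107 with FAEE-SAP, a log2 fold change of -1.52 (SE 0.14, limma adjusted p = 0.00525). As deposited the *Prss2* levels were 30563 and 32099 against 27413 and 27299, so the groups were apart there too, by -0.20. Scaled *Try5* was 33811 and 21626 with saline and 9437 and 8719 with FAEE-SAP, a log2 fold change of -1.58 (SE 0.23, limma adjusted p = 0.0198). The 2 saline libraries of *Try5* differed more from each other than the treated ones did. As deposited, *Try5* overlapped between the groups (24612 and 18729 against 19102 and 16873).

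The low members moved by like amounts on this scale. Scaled *Try10* was 393 and 376 with saline and 122 and 137 with FAEE-SAP (log2 fold change -1.58, SE 0.14, limma adjusted p = 0.00552). Scaled *Prss3* was 294 and 225 with saline and 123 and 108 with FAEE-SAP (log2 fold change -1.16, SE 0.19, limma adjusted p = 0.0263), but as deposited it overlapped (214 and 195 against 248 and 209). Scaled *Prss1*, at the low end of the family, was 8.60 and 5.20 with saline and 1.87 and 2.53 with FAEE-SAP (log2 fold change -1.59, SE 0.31, limma adjusted p = 0.0396). As deposited, *Try10* read 286 and 326 with saline and 247 and 264 with FAEE-SAP, and *Prss1* 6.26 and 4.50 against 3.79 and 4.89, so that *Prss1* overlapped and *Try10* did not. No scaled treated value of any of the 6 genes reached its lowest saline value, where 58.8% of all genes tested showed no overlap in either direction. As deposited 3 of the 6 did not overlap, where 91.1% of all genes did not. The median log2 fold change of the 6 was -1.58 scaled and -0.26 as deposited, beside 0.017 and 1.24 for all genes tested. The number of the 6 genes called was 4 without WT saline replicate 1, 6 without WT saline replicate 2, 3 without WT FAEE-SAP replicate 1, and 2 without WT FAEE-SAP replicate 2. Calls lower over all genes went from 420 to 97, 226, 194, and 64 in these fits.

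In cKO mice, no difference between FAEE-SAP and saline passed the test. None of the 6 genes was called, where 0.0531% of the genes tested were called in either direction, all 5 of them higher, and 888 of 9423 genes had an unadjusted limma p under 0.05. Scaled *Try4* was 67426 and 73881 in cKO saline and 39391 and 46412 in cKO FAEE-SAP, a log2 difference of -0.69 (SE 0.12, limma adjusted p = 0.268). Scaled *Try10* was 503 and 537 with saline and 288 and 281 with FAEE-SAP, a log2 difference of -0.84 (SE 0.15, limma adjusted p = 0.269). In both genes the treated libraries were below the saline libraries. As deposited *Try4* overlapped, at 41864 and 49138 with saline and 41223 and 45271 with FAEE-SAP, and *Try10* did not, at 312 and 357 against 301 and 274.

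Scaled *Prss2* was 47131 and 50379 with saline and 31514 and 35523 with FAEE-SAP, a log2 difference of -0.51 (SE 0.11, limma adjusted p = 0.351), and scaled *Try5* was 34342 and 43859 against 24990 and 32823, a difference of -0.41. As deposited the sign of both turned, to 0.11 for *Prss2* (29263 and 33507 against 32980 and 34649) and 0.21 for *Try5* (21323 and 29171 against 26152 and 32016). Scaled *Prss3* was 991 and 403 with saline and 298 and 262 with FAEE-SAP, so its difference of -1.15 (SE 0.45, limma adjusted p = 0.532) rested largely on cKO saline replicate 1. Of the 6 genes, 5 did not overlap between the groups, where 43.2% of all genes tested did not. As deposited 1 of the 6, *Try10*, did not overlap, where 77% of all genes did not. The scaled exception was *Prss1*, at 27.8 and 5.12 with saline and 5.38 and 5.02 with FAEE-SAP. As deposited, *Prss3* read 616 and 268 with saline and 311 and 256 with FAEE-SAP, and *Prss1* 17.2 and 3.40 against 5.63 and 4.90, and both overlapped. As deposited, none of the 6 was called either, where 0.159% of genes were.

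The cKO saline replicate 1 library stood apart for several low members. It held 27.8 scaled RPKM of *Prss1* and 991 of *Prss3*, whereas the other 7 libraries ran from 1.87 to 8.60 and from 108 to 403. *Gm5771* and *Gm10334*, the close copies of *Prss1* and *Prss3*, were also highest there, at 311 and 50.9 scaled RPKM against at most 50.5 and 15.8 elsewhere. *Try4*, *Prss2*, *Try5*, and *Try10* were lower in this library than in its replicate. Without it, the log2 difference of *Prss1* between FAEE-SAP and saline in cKO was 0.06, and with it -1.15.

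The comparison of the genotypes with FAEE-SAP set cKO against WT mice in pancreatitis, and trypsinogen RNA was higher in the cKO on the scaled values. Per the methods, WT mice were purchased, whereas the cKO mice came from mating floxed with Cre mice. Mouse source and Cre therefore go with genotype in each comparison of cKO and WT, and cannot be told apart from the deletion. Of the 6 genes, 5 were called higher, by 2.19-fold for *Try10* to 3.13-fold for *Try5*, and *Spink1* was higher by 2.62-fold, where 0.863% of the genes tested were called higher. The exception, *Prss1*, missed the threshold at a log2 difference of 1.22 (SE 0.24, limma adjusted p = 0.0859). Scaled *Try4* was 13844 and 16329 in the WT libraries against 39391 and 46412 in the cKO libraries, a log2 fold change of 1.50 (SE 0.17, limma adjusted p = 0.0244). Scaled *Try5* was 9437 and 8719 in the WT libraries against 24990 and 32823 in the cKO libraries, a log2 fold change of 1.65 (SE 0.18, limma adjusted p = 0.0244). In both genes each cKO library was far above each WT library.

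Scaled *Prss2* was 13543 and 14107 in the WT libraries against 31514 and 35523 in the cKO libraries, a log2 fold change of 1.26 (SE 0.14, limma adjusted p = 0.0248). *Prss3* (123 and 108 against 298 and 262) and *Try10* (122 and 137 against 288 and 281) gave 1.27 and 1.13 on the log2 scale, with limma adjusted p = 0.0358 and 0.0425. The 6 genes did not overlap between the genotypes, where 51.8% of all genes tested did not, and none of the 6 overlapped as deposited, where 83.7% of all genes did not. The direction was the same as deposited, though smaller, with log2 differences of 0.17 for *Try10* to 0.69 for *Try5*, and none was called, where 0.663% of the genes tested were called higher and 39.6% lower. The median of the 6 was 1.27 scaled and 0.31 as deposited, beside -0.0078 and -0.91 for all genes tested. The number called was 3 without cKO FAEE-SAP replicate 1, and 0 without cKO FAEE-SAP replicate 2, WT FAEE-SAP replicate 1, or WT FAEE-SAP replicate 2. Over all genes, 140 were called in all, 139 and 110 without either cKO library, and 0 without either WT library.

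**Figure D2:**
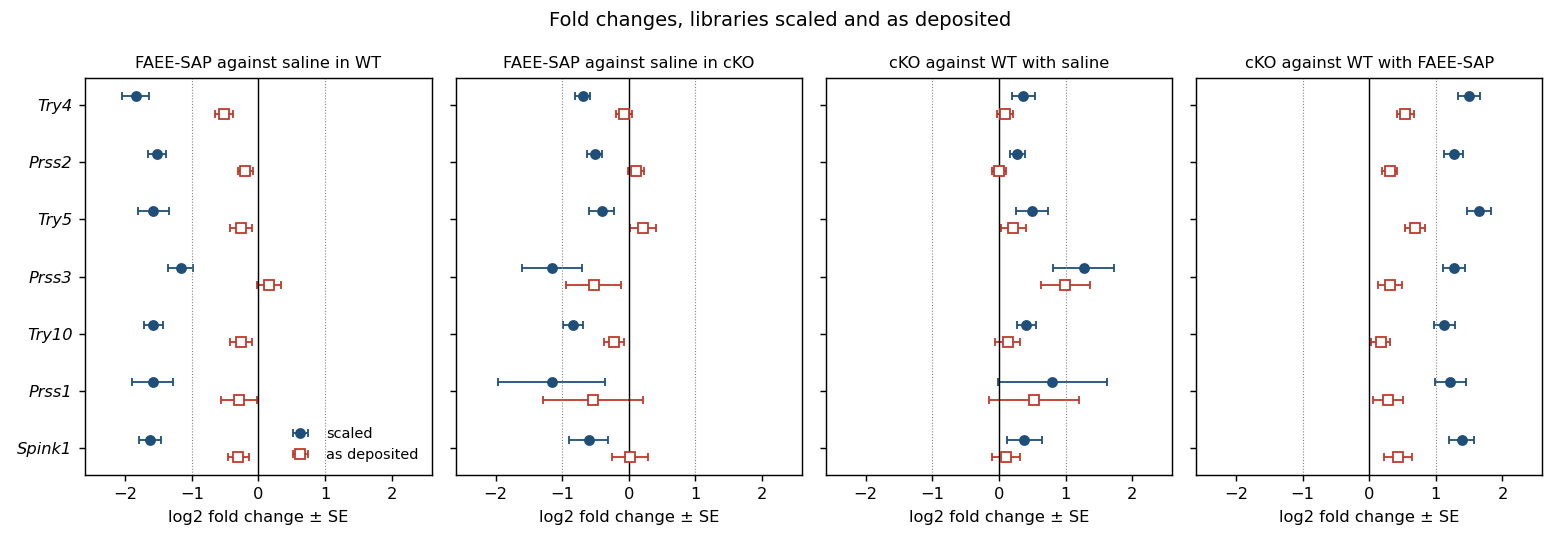
Log2 fold change of the 6 trypsinogen genes and *Spink1* in the 4 comparisons of pairs of groups, with filled circles for scaled values, open squares for values as deposited, bars for the SE, and dotted lines at a 2-fold change. On the scaled values the 6 genes ran from -1.84 to -1.16 for FAEE-SAP in WT and from 1.13 to 1.65 for cKO against WT with FAEE-SAP, whereas as deposited they ran from -0.52 to 0.16, which includes *Prss3* on the other side of 0, and from 0.17 to 0.69.

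With saline, no difference between the genotypes passed the test. None of the 6 genes was called and 0% of the 8715 genes tested were, with 187 genes at an unadjusted limma p under 0.05 and 0.0229% called as deposited. The scaled log2 differences of cKO against WT were 0.28 for *Prss2*, 0.37 for *Try4*, 0.41 for *Try10*, 0.49 for *Try5*, 0.80 for *Prss1* (SE 0.82), and 1.27 for *Prss3* (SE 0.45), each with a limma adjusted p of 0.999. Of the 6 genes, 5 did not overlap between the genotypes, against 27.9% of all genes tested, and *Prss1* overlapped. As deposited 1 of the 6, *Prss3*, did not overlap, against 46.1% of all genes. The *Prss3* difference was 0.62 without cKO saline replicate 1 and 1.91 without cKO saline replicate 2. As deposited the *Prss2* difference was -0.00036, so its sign was not the same on both scales.

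Whether the change with FAEE-SAP differed between the genotypes was tested as an interaction over all 8 libraries. None of the 6 genes passed. The scaled interaction was 1.11 for *Try4* (SE 0.27, limma adjusted p = 0.217), 0.97 for *Prss2* (SE 0.19, limma adjusted p = 0.151), and 1.14 for *Try5* (SE 0.35, limma adjusted p = 0.284). It was 0.70 for *Try10*, 0.39 for *Prss1* (SE 0.97), and -0.02 for *Prss3* (SE 0.54). Over all genes 0.0719% were called (8 of 11133, with 1398 at an unadjusted limma p under 0.05). As deposited, 0.189% passed above 0 and 6.92% below 0. *Spink1* gave 0.99 (SE 0.36, limma adjusted p = 0.343).

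The loci next to the family did not all move with it. Cationic trypsinogen *2210010C04Rik* was, after the 3 leading genes, the most abundant, at 14906 and 11579 scaled RPKM in WT saline, 1978 and 2155 in WT FAEE-SAP, 13026 and 14246 in cKO saline, and 6772 and 7841 in cKO FAEE-SAP. The deposited levels were 10851 and 10028, 4004 and 4170, 8088 and 9475, and 7087 and 7648 in the same order. On both scales the WT treated libraries were far below the rest, and on the scaled values the cKO treated libraries stood between them and saline. It fell by 6.39-fold in WT (log2 fold change -2.68, SE 0.17, limma adjusted p = 0.00257, and -1.35 as deposited) and was higher in cKO than WT with FAEE-SAP by 1.81 on the log2 scale (SE 0.16, limma adjusted p = 0.0156). In cKO the treatment difference was -0.87 (SE 0.13, limma adjusted p = 0.231). The genotype value was 1.72 without WT FAEE-SAP replicate 1 and 1.86 without replicate 2, fits in which no gene of the whole table was called.

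*Gm2663* ran against the family. It was at 15.9 and 13.9 scaled RPKM in WT saline and 228 and 197 in WT FAEE-SAP, a rise of 14.1-fold (log2 fold change 3.82, SE 0.17, limma adjusted p = 0.00127), and as deposited it read 11.6 and 12.01 with saline and 461 and 382 with FAEE-SAP, a log2 fold change of 5.14. In cKO it was at 7.42 and 48.9 with saline and 253 and 173 with FAEE-SAP, a log2 difference of 3.47 that did not pass (SE 0.91, limma adjusted p = 0.430) and that was 2.13 without cKO saline replicate 1 and 4.83 without cKO saline replicate 2. The 4 FAEE-SAP libraries held 173 to 253 and the 4 saline libraries 7.42 to 48.9. With FAEE-SAP the genotypes were close, at a log2 difference of -0.03 (SE 0.22, limma adjusted p = 0.958), and at -0.99 as deposited. Over the 8 libraries, the correlation of *Gm2663* with each member on the log2 scale ran from -0.77 to -0.52, whereas *Prss2* and *Try4* had r = 0.996, and these libraries share their scaling factors.

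*1810009J06Rik* is nearly the same sequence as *Gm2663*, with 857 of 862 aligned bases identical (99.4%), and 69.3% and 67.6% of their windows of 100 bases are shared. It was nevertheless lower in WT FAEE-SAP (1.95 and 2.40 scaled RPKM) than in WT saline (15.9 and 11.3), a log2 fold change of -2.59 (SE 0.25, limma adjusted p = 0.00597), a call that was lost without WT FAEE-SAP replicate 2, where calls over all genes went from 755 to 97. With FAEE-SAP it was higher in cKO (26.3 and 23.7) by 3.47 on the log2 scale (SE 0.21, limma adjusted p = 0.0127), and by 3.30 and 3.60 without WT FAEE-SAP replicate 1 or 2, the fits that called no gene at all. In cKO saline it read 11.8 and 68.8, so its replicates were far apart in that group. Its log2 fold change for FAEE-SAP in WT ran from -2.86 to -2.34 on leaving out 1 library. *Gm2663* made up 50.1% and 55.2% of the sum of the pair in WT saline, 38.6% and 41.5% in cKO saline, and far more after FAEE-SAP, with 99.1% and 98.8% in WT and 90.6% and 88.0% in cKO. Most of the places where reads can tell the pair apart are shown here because that split rests on such places. The stretches hold the 4 differing bases of the reading frame, in capitals, and 1 more differing base lies outside the frame and is not shown.
Gm2663, chr6:40999421-40999459, minus strand: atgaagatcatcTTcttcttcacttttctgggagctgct
1810009J06Rik, chr6:40964789-40964827, plus strand: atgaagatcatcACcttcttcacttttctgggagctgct
Gm2663, chr6:40997952-40997990, minus strand: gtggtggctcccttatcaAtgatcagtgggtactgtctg
1810009J06Rik, chr6:40966268-40966306, plus strand: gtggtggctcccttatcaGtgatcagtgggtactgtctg
Gm2663, chr6:40996037-40996075, minus strand: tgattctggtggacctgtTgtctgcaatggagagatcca
1810009J06Rik, chr6:40968185-40968223, plus strand: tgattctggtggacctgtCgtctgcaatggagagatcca
Reads that cross none of the 5 differing bases can match both genes, so the level of each one of the pair is uncertain. The recovered depth put about 149 to 10728 reads on *Gm2663* and 79.7 to 1262 on *1810009J06Rik*.

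*Gm5771* was at 40.2 and 22.8 scaled RPKM in WT saline, 10.7 and 8.74 in WT FAEE-SAP, 311 and 50.5 in cKO saline, and 38.4 and 31.4 in cKO FAEE-SAP. *Gm10334* was at 11.7 and 6.85, 4.89 and 4.49, 50.9 and 15.8, and 12.7 and 12.7 in the same order of groups. Their patterns over the libraries were close to those of their named copies, with r = 0.956 for *Prss1* and *Gm5771* and r = 0.983 for *Prss3* and *Gm10334* over 8 libraries, and shared reads can add to such correlations. *Gm5771* was closer still to *Prss3* (r = 0.993), and *Gm10334* to *Gm5771* (r = 0.989). *Prss1* made up 8.21% to 22.4% of the sum of *Prss1* and *Gm5771*, and *Prss3* 95.1% to 97.0% of the sum of *Prss3* and *Gm10334*. *Gm5409*, annotated as a pseudogene, was listed at 0 in all 8 libraries.

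**Figure D3:**
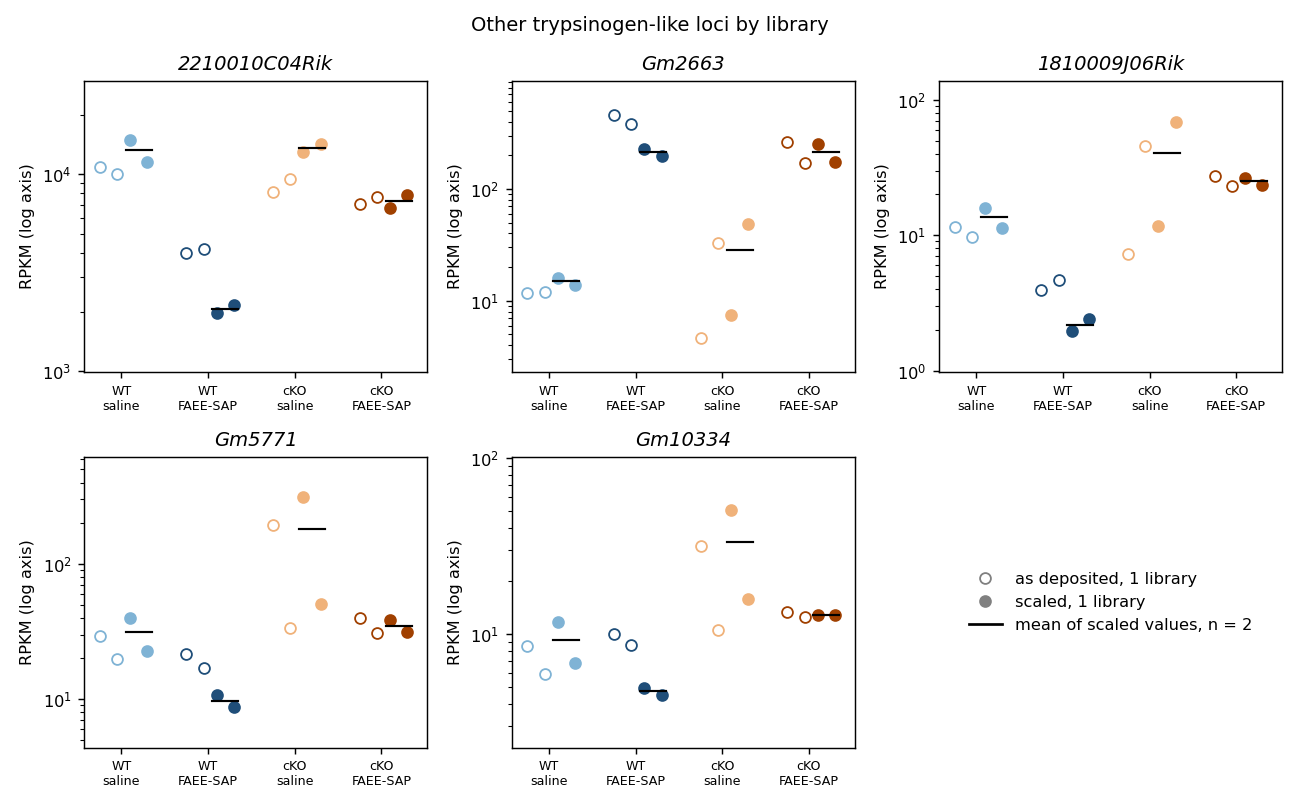
RPKM of the trypsinogen-like loci beside the family in each library by group, on a log axis, with open points as deposited, filled points scaled, and lines for the mean of the scaled values (n = 2). Scaled *Gm2663* sits at 173 to 253 in the 4 FAEE-SAP libraries and at 7.42 to 48.9 in the 4 saline libraries, whereas *2210010C04Rik* is lowest in WT FAEE-SAP, at 1978 and 2155.

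Promoters of 4 members and of 4 of the loci were in the RefSeq table (GRCm38.p6), and 4 are shown because their genes moved together or, for *Gm2663*, the other way. The motifs searched, 4 in all, were read on both strands. They were TATAAA, the TATA box, CACCTG, an E-box of the kind bound by PTF1A, TTTCCC, the short site bound by RBPJ and RBPJL, and TCAAGG, the core of the site bound by NR5A2. The lines give the bases before the transcript start on the gene's strand, with matches in capitals. No matches overlapped in these 4, but in *Gm2663* TCAAGG runs straight into TATAAA.
Try4, chr6:41302022-41302268, plus strand: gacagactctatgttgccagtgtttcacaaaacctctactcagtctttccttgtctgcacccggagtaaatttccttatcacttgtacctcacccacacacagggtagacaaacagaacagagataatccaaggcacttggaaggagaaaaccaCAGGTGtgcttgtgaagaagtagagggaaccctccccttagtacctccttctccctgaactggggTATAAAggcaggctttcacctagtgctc
Prss2, chr6:41521526-41521775, plus strand: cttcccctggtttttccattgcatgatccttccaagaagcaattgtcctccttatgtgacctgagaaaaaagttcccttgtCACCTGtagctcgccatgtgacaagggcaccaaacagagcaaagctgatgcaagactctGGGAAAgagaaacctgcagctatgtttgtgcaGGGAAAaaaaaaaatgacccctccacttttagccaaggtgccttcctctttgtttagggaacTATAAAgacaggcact
2210010C04Rik, chr6:41035510-41035759, minus strand: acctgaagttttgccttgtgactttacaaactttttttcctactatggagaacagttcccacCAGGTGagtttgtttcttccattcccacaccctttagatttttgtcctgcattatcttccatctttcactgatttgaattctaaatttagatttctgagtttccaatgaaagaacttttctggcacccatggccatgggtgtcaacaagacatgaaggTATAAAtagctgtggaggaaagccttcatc
Gm2663, chr6:40999480-40999729, minus strand: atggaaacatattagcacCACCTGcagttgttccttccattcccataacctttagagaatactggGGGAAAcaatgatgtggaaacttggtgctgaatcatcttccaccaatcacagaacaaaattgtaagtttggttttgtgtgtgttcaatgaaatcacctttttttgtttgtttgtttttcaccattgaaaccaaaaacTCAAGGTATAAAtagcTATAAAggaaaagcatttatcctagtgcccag
TATAAA and CACCTG were in all 8 promoters, including that of *Gm2663*, whereas they were in 13.6% and 20.3% of 32544 promoters. TTTCCC was in the promoters of *Prss1*, *Prss2*, *Gm5771*, and *Gm2663* and in 25.3% of all promoters. TCAAGG was in those of *Prss3*, *Gm10334*, and *Gm2663* and in 14.4% of all promoters, so among the 4 shown it was in *Gm2663* alone. A match describes letters only.

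The makeup of the family shifted little. *Try4* made up 45.3% and 43.4% of the summed RPKM of the 6 genes in WT saline, 37.3% and 41.4% in WT FAEE-SAP, 44.8% and 43.7% in cKO saline, and 40.8% and 40.3% in cKO FAEE-SAP. The 4 FAEE-SAP libraries were therefore below the 4 saline libraries, in a value that scaling a library does not change. *Prss2* made up 30.0% and 35.4%, 36.5% and 35.8%, 31.3% and 29.8%, and 32.7% and 30.8% in the same order of groups, and *Try5* ran from 20.6% to 28.5%. *2210010C04Rik*, set against the summed 6 genes, was 10.7% and 11.1% in WT saline, 5.34% and 5.47% in WT FAEE-SAP, 8.66% and 8.43% in cKO saline, and 7.02% and 6.80% in cKO FAEE-SAP. The replicates of this share were close to each other and the 4 groups were apart.

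*Spink1* was at 1501 and 1209 scaled RPKM in WT saline, 462 and 415 in WT FAEE-SAP, 2244 and 1426 in cKO saline, and 1336 and 999 in cKO FAEE-SAP. The deposited levels were 1093 and 1047, 936 and 803, 1393 and 949, and 1398 and 975 in that order. On the scaled values it was lowest in both WT treated libraries, with log2 fold changes of -1.63 for FAEE-SAP in WT (SE 0.17, limma adjusted p = 0.00778) and 1.39 for cKO against WT with FAEE-SAP (SE 0.19, limma adjusted p = 0.0402). As deposited the differences were -0.30 and 0.43. The ratio of summed trypsinogen to *Spink1* within a library does not depend on scaling. It was 93.2 and 86.6 in WT saline, 80.2 and 94.9 in WT FAEE-SAP, 67.0 and 119 in cKO saline, and 72.2 and 115 in cKO FAEE-SAP. The libraries within each cKO group differed more than the groups did, and all groups overlapped. The log2 ratio differed by -0.0040 between FAEE-SAP and saline and by 0.027 between cKO and WT, each with p = 0.944 in an exact two-sided permutation test within strata, where 36 arrangements allow no p below 0.0556. For the single members, the log2 difference in the ratio between FAEE-SAP and saline ran from -0.28 for *Prss1* to 0.12 for *Try5*, and with so few arrangements no test of a single member could have passed.

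**Figure D4:**
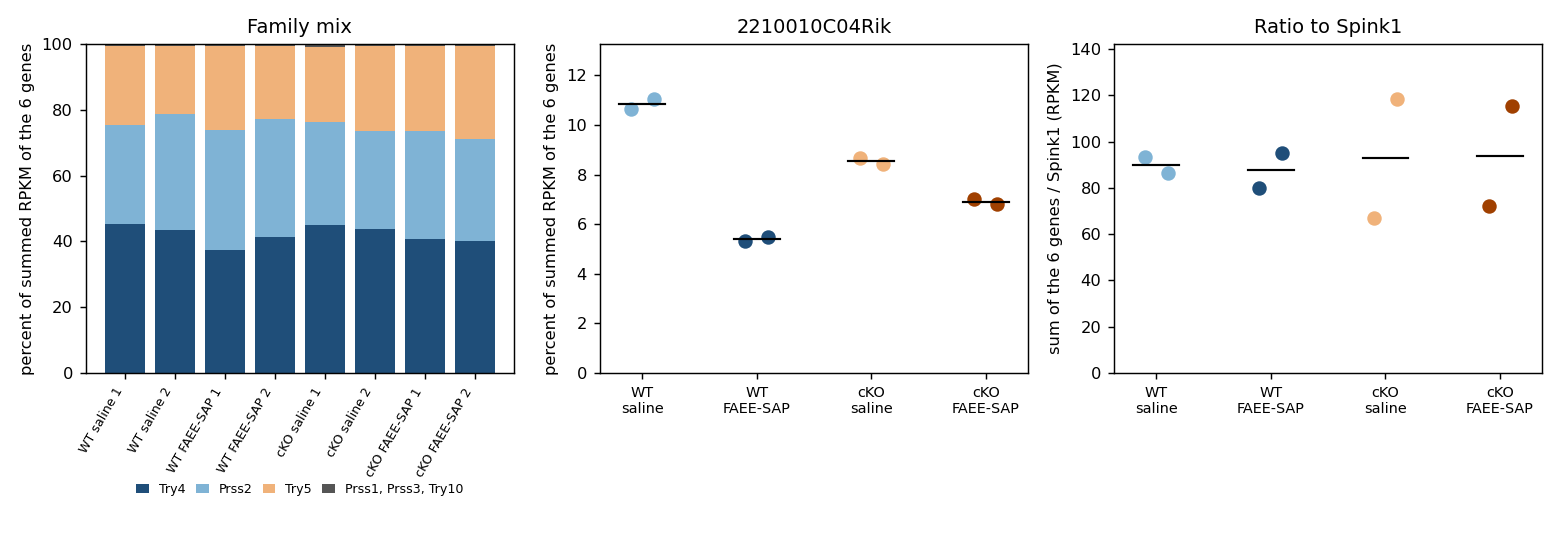
Share of each trypsinogen gene in the summed RPKM of the 6 genes (stacked bars), *2210010C04Rik* as a percent of that sum, and ratio of the sum to *Spink1*, with a point for each library and lines for group means (n = 2). The *Try4* share is 37.3% to 41.4% in the FAEE-SAP libraries and 43.4% to 45.3% in the saline libraries, and the ratio runs from 67.0 to 119 with overlap between all groups.

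Of 13 listed inhibitors of trypsin-like proteases, 4 passed the filter on low values, *Spink1* among them, and 2 fell in WT with FAEE-SAP on the scaled values, where 3.86% of all genes tested fell. As deposited 1 of the 4 was called lower and 2 higher, where 0.789% and 65.9% of all genes were. Beside *Spink1*, scaled *Serpini2*, a serpin of the acinar cell, fell by 4.09 on the log2 scale (SE 0.17, limma adjusted p = 0.00110, and -2.77 as deposited) and was 3.36 higher in cKO than WT with FAEE-SAP (SE 0.21, limma adjusted p = 0.0127, and 2.40 as deposited). *Spint1*, a Kunitz-type inhibitor of epithelial membranes, gave 0.998 (limma adjusted p = 0.0481) and was not called for its size, and *Spint2* gave 0.01. As deposited they gave 2.31 and 1.33, and both were called higher. In cKO against WT with FAEE-SAP, *Spint1* gave -1.08 (limma adjusted p = 0.0831) and *Spint2* -0.18 on the scaled values, neither of them called, and as deposited both were called lower (-2.03 and -1.14), as were 39.6% of all genes.

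Of 8 listed genes whose products activate or degrade trypsinogen, 5 were tested. In WT with FAEE-SAP 2 were called higher and 1 lower on the scaled values, where 3.08% of all genes were called higher and 3.86% lower. As deposited 4 were called higher and 1 lower in WT, and in cKO against WT with FAEE-SAP *Ctsl* (-1.03) and *Ctsd* (-1.02) were called lower and *Ctrc* (1.53) higher. Over all genes 65.9% were called higher in WT as deposited, and 39.6% lower in cKO against WT with FAEE-SAP, so counts in those directions say little about the list. The values that follow are scaled. *Ctsl*, cathepsin L, rose by 1.36 on the log2 scale (limma adjusted p = 0.0337) and *Lgmn*, the lysosomal legumain that processes cathepsins, by 1.59 (limma adjusted p = 0.0301). *Ctrc*, chymotrypsin C, fell by 2.89 on the log2 scale (limma adjusted p = 0.00345) and was 2.49 higher in cKO than WT with FAEE-SAP (limma adjusted p = 0.0140). *Ctsb*, cathepsin B, gave 0.60 (limma adjusted p = 0.0774) and 0.05 in these 2 comparisons, and *Ctsd*, cathepsin D, 0.23 in the first. In cKO with FAEE-SAP against saline, *Ctsl*, *Lgmn*, and *Ctsb* gave 1.15, 1.82, and 0.71. *Ctrc* was lower there, at 67.3 and 64.8 RPKM against 119 and 89.8 with saline. *Ctsd* overlapped, at 44.5 and 57.3 against 50.4 and 46.1. None of the 5 was called, where 0.0531% of all genes were.

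The zymogens that trypsin activates fell in the same comparison. All 12 listed zymogens fell in WT with FAEE-SAP on the scaled values, where 3.86% of all genes did, with a median log2 fold change of -2.18 beside -1.58 for the 6 trypsinogen genes. The range was from -3.85 for *Clps*, procolipase, to -1.43 for *Ctrb1*, chymotrypsinogen B, with *Cpa1*, procarboxypeptidase A, at -1.999 and *Cpb1*, procarboxypeptidase B, at -2.48. As deposited all 12 values were also below 0, and 5 were called lower, against 0.789% of all genes. On the scaled values 10 of the 12 were higher in cKO than WT with FAEE-SAP, against 0.863% of all genes, with a median of 1.52 beside 1.27, and the elastase genes *Cela1* (0.98) and *Cela3a* (0.88) were not called. As deposited 2 of the 12 were called higher there, against 0.663% of all genes, and the median was 0.56. In cKO, treatment called none of the 12, where 0.0531% of all genes were called, and the median was -0.82. The interaction passed for 1 of 12, *Clps*, at 2.86 (limma adjusted p = 0.00722), where 0.0719% of all genes passed. Among the 35 tested genes of the digestive enzyme list, which holds members and zymogens too, 32 fell in WT and 27 were higher in cKO than WT with FAEE-SAP on the scaled values, and 8 and 4 as deposited, beside the same shares of all genes. In WT, 1 gene of that list was called higher on each scale. Over all genes 3.08% were called higher there scaled and 65.9% as deposited. The trypsin receptors *F2r* and *F2rl1*, 2 of 4 listed, passed the filter. Neither was called in these comparisons on the scaled values, and as deposited both were called higher in WT with FAEE-SAP (1.15 and 1.64), as were 65.9% of all genes.

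Acinar transcription factors fell in part on the scaled values. In WT with FAEE-SAP, *Ptf1a* (-1.81), *Rbpjl* (-2.13), *Bhlha15* (-3.47), and *Gata4* (-1.48) were called lower of the 7 listed, against 3.86% of all genes. *Xbp1*, a factor of the unfolded protein response, was higher by 1.39 on the log2 scale, where 3.08% of all genes were called higher. *Bhlha15*, which drives granule maturation, was called higher, alone of the 7, in cKO against WT with FAEE-SAP, at 2.91. Over all genes 0.863% were called higher there. As deposited 1 of the 7 was called lower in WT, *Bhlha15* (-2.17), and 1 higher, *Xbp1* (2.71), and the median was -0.18 in place of -1.48, where 0.789% of all genes were called lower and 65.9% higher. In cKO against WT with FAEE-SAP, *Bhlha15* (1.97) was called higher and *Xbp1* (-1.68) lower as deposited. Over all genes 0.663% were called higher and 39.6% lower there.

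Markers of cell types moved in the same comparisons. Of the acinar markers, *Cpa1*, *Cpb1*, *Ctrb1*, *Cela1*, *Cel*, and *Pnlip* are also in the digestive enzyme list. *Ptf1a*, *Rbpjl*, and *Bhlha15* are also among the acinar transcription factors, so the acinar counts are not separate from those lists. In WT with FAEE-SAP on the scaled values, 11 of 12 acinar markers were called lower, 3 of 8 tested markers of macrophages and neutrophils and 1 of 5 of ducts were called higher, and 2 of 6 islet markers were called lower. Over all genes 3.86% were called lower and 3.08% higher. None of the tested markers of lymphoid and plasma cells (6), fibroblasts (6), endothelium (5), or adipocytes (3) was called. In cKO against WT with FAEE-SAP, 6 of 12 acinar and 3 of 6 islet markers were higher, 1 of 8 macrophage and neutrophil markers was lower, and none of the other lists had a call, where 0.863% of all genes were called higher and 0.409% lower. As deposited the median gene was higher by 1.24 on the log2 scale in WT with FAEE-SAP, and 65.9% of all genes were called higher. On that scale 3 of 12 acinar markers were called lower in WT, where 0.789% of all genes were. The markers called higher there were 7 of 8 of macrophages and neutrophils, 5 of 6 of fibroblasts, 2 of 6 of lymphoid and plasma cells, 2 of 5 of endothelium, 2 of 3 of adipocytes, 2 of 5 of ducts, and 1 of 6 of islets, so the shares of the lymphoid, endothelial, ductal, and islet lists were below that of all genes. In cKO against WT with FAEE-SAP as deposited, 2 of 12 acinar markers were called higher, where 0.663% of all genes were. The markers called lower there were 2 of 8 of macrophages and neutrophils, 2 of 6 of ducts, 1 of 6 of islets, and 1 of 6 of lymphoid and plasma cells, each share below the 39.6% of all genes. The summed acinar markers were 219806 and 187701 scaled RPKM in WT saline, 60539 and 62719 in WT FAEE-SAP, 258203 and 253582 in cKO saline, and 150140 and 167214 in cKO FAEE-SAP. The summed macrophage and neutrophil markers, 9 of 10 listed, were 51.9 and 66.3, 125 and 93.6, 68.8 and 60.5, and 95.0 and 74.1 in that order, with *Ly6g* at 0 in 5 libraries. *S100a8* and *S100a9*, which mark neutrophils, were at 2.63 to 18.6 and 7.62 to 33.1 scaled RPKM in the FAEE-SAP libraries and at most 0.983 and 1.39 with saline. *Cd68* and *Csf3r* also did not overlap between the treatments, whereas *Adgre1*, *Csf1r*, and *Lyz2* overlapped. So did *Ptprc*, at 0.940 to 2.59 with FAEE-SAP and 1.18 to 3.14 with saline. How many of all genes did not overlap between the treatments over both genotypes was not counted. The part of cell makeup in the trypsinogen differences was not tested.

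The genes whose log2 scaled levels followed the mean of the 6 members most closely over the 8 libraries were *Eif3e* (r = 0.993), *Uqcrh* (r = 0.993), *Rps2* (r = 0.991), *Nphs1* (r = 0.990), and *Rack1* (r = 0.990), among 7740 genes. *Eif3e* and *Rps2* encode parts of the translation machinery. With the mean of 24 other digestive enzymes, the single members had r from 0.806 for *Prss1* to 0.993 for *Prss2*. All these values share the scaling factors of the libraries, which run from 0.621 to 2.02. *Eif3e* went the other way as deposited, with 29.0 and 29.7 RPKM in WT saline and 44.9 and 46.9 in WT FAEE-SAP, against 39.8 and 34.4 and then 22.2 and 24.2 scaled. None of the 5 genes was among the first 5 by rank correlation, and 1 was among the first 5 on the values as deposited.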

How the data were processed

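RNA-Seq of 8 pancreata was analyzed, 2 libraries in each of 4 groups, assigned by genotype, treatment, and replicate in their labels. Per the methods, a directional kit, paired-end reads, and CLC Genomics Workbench with Ensembl GRCm38 were used, and the submitters' processing notes name fastp and GRCm38.p6. The authors deposited RPKM for each gene in each library. How RPKM was computed and how reads matching several genes were placed are not given in the sources used here. Read totals were recovered from the low values, where 84.5% to 85.8% of values under 20 reads were whole within 0.1 reads, and the reads summed to 100.3% to 105.7% of the totals, so reads per gene are approximate.

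Libraries were scaled by the median of ratios within each comparison, and over all 8 libraries for the interaction and for the levels printed. Genes whose RPKM reached 0.5 in 2 or more of the libraries compared were fitted with limma 3.58.1 (R 4.3.3) on log2(scaled RPKM + 0.1) with an intensity trend, so fold changes of low genes are understated. A call needed a Benjamini-Hochberg adjusted p under 0.05 over all genes tested and a 2-fold change. All 6 genes passed the filter in each comparison. Ratios within a library were tested by exact permutation. The scripts were tested on simulated data. Symbols of 46319 genes (95.1%) matched GENCODE vM21, and transcripts were compared with Biopython 1.88. Named were the 6 genes, *Spink1*, the similar loci, any tested member of the lists (inhibitors, activators and degraders, zymogens, receptors, digestive enzymes, acinar transcription factors, cell type markers), and the 5 genes most correlated with the members. All 9 macrophage and neutrophil markers with a row were given by name, and those given with values were picked after the values were seen. The members and lists were chosen with earlier results of these data known. Alternatives were other scalings, filters, pseudocounts, thresholds, and samples, and were run for the 6 genes, *Spink1*, and 3 of the loci.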

Additional observations from a re-analysis of the deposited data

Results flagged for a closer look

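The interaction of genotype and treatment for *2210010C04Rik*, cationic trypsinogen, passed the test on the values as deposited, at 1.10 on the log2 scale (SE 0.18, limma adjusted p = 0.0430), and was flagged because the change with FAEE-SAP differed between WT and cKO. As deposited, FAEE-SAP gave -1.35 in WT and -0.25 in cKO. On the scaled values the interaction was 1.77 (SE 0.23, limma adjusted p = 0.0721) and did not pass. The unadjusted limma p was 0.000104 scaled and 0.000289 as deposited, and the adjustment differed with the number of genes called, 8 scaled and 791 as deposited. Of the 791, 21 were above 0, as was this gene, and 770 below.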

How the results depend on the processing

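Of the 6 genes, 5 were called in cKO against WT with FAEE-SAP. The count was 0 as deposited, 0 with quantile normalization, 0 with no filter, and 0 with no trend, and leaving out 1 library gave 0 to 3. Calls higher over all genes were 95 at first, then 73, 43, 0, and 27 under those 4 settings, and 0 to 75 on leaving out 1 library. For FAEE-SAP in WT, 6 were called, and the count was 0 as deposited, 2 with quantile normalization, 1 with no filter, 4 with no trend, 4 with the fit over all 8 libraries, and 2 to 6 on leaving out 1 library. Calls lower over all genes were 420 at first, then 86, 352, 127, 319, and 459 under those 5 settings, and 64 to 226 on leaving out 1 library. For cKO against WT with saline, 0 became 1 by an unadjusted p, and for the interaction 0 became 1 with an RPKM minimum of 2 (*Prss2*, 1.05) and 2 by an unadjusted p. Over all genes, 59 were called for the saline comparison by an unadjusted p. For the interaction, 35 were called with an RPKM minimum of 2 and 782 by an unadjusted p. Treatment in cKO called 0 under each alternative run. The cause of these changes was not tested. A gene with the same rank in each library, such as *Try4*, gets 0 by the construction of quantile normalization.

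Directions turned as follows on the log2 scale. For cKO against WT with saline, *Prss2* was -0.00036 as deposited and -0.052 with quantile normalization, and *2210010C04Rik* was -0.25, -0.11, and, with an RPKM minimum of 2, -0.013. For FAEE-SAP in WT, *Prss3* was 0.16 as deposited and *Try5* 0.41 with quantile normalization. For FAEE-SAP in cKO as deposited, *Prss2* was 0.11, *Try5* 0.21, *Spink1* 0.022, and *1810009J06Rik* 0.45, and with quantile normalization *Prss2* was 0.083, *Try5* 0.32, and *1810009J06Rik* 0.0039. The interaction was -0.25 for *Prss1* as deposited, -0.051 for *Try5* with quantile normalization, and 0.060 for *Prss3* with an RPKM minimum of 2. *Gm2663* turned to 0.027 with an RPKM minimum of 2 in cKO against WT with FAEE-SAP. The treatment difference of the ratio to *Spink1* was 0.10 without *Try4*. Of the 5 genes most like the members, 0 were shared by rank correlation and 1 as deposited.

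Leaving out 1 library turned these directions. *Gm2663* ran from -0.28 to 0.23 in cKO against WT with FAEE-SAP. With saline that comparison ran from -0.41 to 2.0 for *Prss1*, -0.21 to 2.32 for *1810009J06Rik*, -0.14 to 0.17 for *2210010C04Rik*, and -1.02 to 1.68 for *Gm2663*. FAEE-SAP in cKO ran from -2.36 to 0.056 for *Prss1* and -1.43 to 1.11 for *1810009J06Rik*. The interaction ran from -0.67 to 0.62 for *Prss3*, -0.82 to 1.59 for *Prss1*, and -1.74 to 0.97 for *Gm2663*. The ratio to *Spink1* ran from -0.21 to 0.20 for treatment and -0.18 to 0.23 for genotype.

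No source ties equal replicate numbers to one source of mice. The correlation of deviations of same-numbered libraries was 0.313 between the FAEE-SAP groups, -0.395 between the saline groups, -0.175 within WT, and 0.450 within cKO. With a replicate block, 6 members were called in cKO against WT with FAEE-SAP, 5 for FAEE-SAP in WT, and 0 in the other comparisons, and over all genes the calls went from 140 to 568, from 755 to 442, from 5 to 52 for FAEE-SAP in cKO, and from 8 to 0 for the interaction. With the WT saline numbers exchanged, an alternative chosen after seeing the data, the block called 822 genes and 6 members for FAEE-SAP in WT.

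With 2 libraries in a group, a ratio tested 2 against 2 cannot go below p = 0.333 in an exact permutation test. No read counts were used, so counting error enters only through the spread of libraries.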
